A study of Mus musculus with 22 samples.

Results

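Genes of cyclic AMP breakdown and of signalling by the neuropeptide CGRP were followed through the RNA-seq libraries of mouse memory T helper cells taken from tissue or from circulation. The set holds 9 of the 55291 gene names in each library, chosen by name: the phosphodiesterase genes Pde2a, Pde3b, Pde4b, Pde4d and Pde7a, the CGRP gene Calca, the receptor chain genes Calcrl and Ramp1, and the transcription factor gene Crem. FPKM values of these genes across the groups were known when the list was drawn up, so their levels and differences are given as a description and not as support for a pattern. All 9 were found, and all 9 passed the filter on low values, but Ramp1 and Calcrl passed through tissue libraries alone.

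The series compares memory cells by the place they were recovered from and the population they derived from. RNA-seq was made from 4 groups of 2 libraries, which the labels call TissueExTRM, TissueExTcirc, CirculatingExTRM and CirculatingExTcirc, here written tissue or circulating ex-TRM and ex-Tcirc. TRM are tissue-resident memory cells and Tcirc are circulating ones. Donor cells were effector Th2 cells, helper cells of type 2 immunity, from OT-II creERT2 or DO11.10 mice, both of which carry a transgenic receptor for ovalbumin (OVA). They were injected into OVA-sensitised hosts, either BALB/c-nu/nu mice, which lack T cells of their own, or C57BL/6 (Ly5.2) mice. One design traced cells by tamoxifen-driven Cre recombination to day 49, with circulating cells taken from blood, and the other moved sorted lung TRM and Tcirc cells of DO11.10 origin into fresh BALB/c-nu/nu hosts, with OVA rechallenge and recovery on day 71. Every RNA library is labelled as lung CD4+ T cells of female mice aged 6 to 10 weeks on a Balb/c host, and no label tells which donor line, day or treatment applies to a group. Differences between groups may therefore hold differences between experiments. Whether a group's libraries came from different animals is not stated, so any p-value measures the spread between libraries only, which may be technical.

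Cyclic AMP is made by adenylyl cyclases when receptors coupled to a stimulatory G protein are engaged, acts through protein kinase A and the CREB family of transcription factors, and is broken down by phosphodiesterases. In T cells a rise in cyclic AMP dampens activation. CGRP is a neuropeptide known from sensory neurons that signals through a receptor made of the chains encoded by Calcrl and Ramp1, which raises cyclic AMP. Calca also encodes the hormone calcitonin by alternative splicing, and the values per gene do not tell the transcripts apart.

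Libraries differed in how many gene names were listed above 0, which bears on every zero below. The count was 37471 and 37894 in tissue ex-TRM libraries, 30488 and 32617 in tissue ex-Tcirc libraries, 917 and 29688 in circulating ex-TRM libraries and 12785 and 7042 in circulating ex-Tcirc libraries. Circulating ex-TRM replicate 1 was treated as missing, which leaves 7 libraries, 4 from tissue and 3 from circulation. In that library Pde2a was listed at 18.1 FPKM and the other 8 genes at 0. Of 10 T cell marker genes, 10 were above 0 in the 4 tissue libraries and in circulating ex-TRM replicate 2, against 9 and 7 in circulating ex-Tcirc replicates 1 and 2. Their summed level was 3900 to 4860 FPKM in tissue and 4120 to 5220 FPKM in circulation. FPKM counts fragments per kilobase of gene with scaling to the mapped fragments of a library, so levels of different genes can be set side by side, but read counts cannot be had from it and the depth behind each value is unknown.

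**Figure D1:**
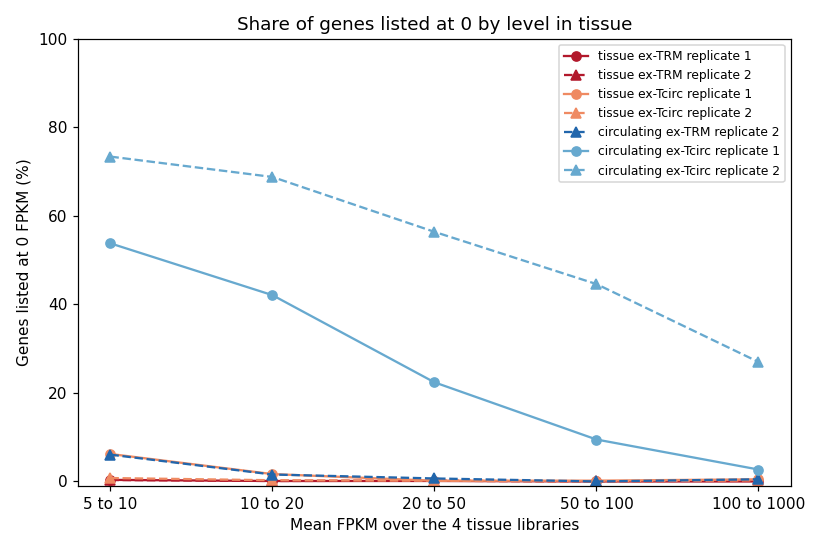
Share of genes listed at 0 FPKM (vertical axis, %) in each of the 7 libraries, for genes grouped by their mean FPKM over the 4 tissue libraries (horizontal axis). Tissue ex-Tcirc replicate 1 and circulating ex-TRM replicate 2 lie close together, at 6.21% and 6.06% in the lowest bin, while circulating ex-Tcirc replicates 1 and 2 stand at 53.8% and 73.4%.

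What a zero can show differed between the circulating libraries. Among 3879 genes with a mean of 5 to 10 FPKM over the tissue libraries, 6.06% were listed at 0 in circulating ex-TRM replicate 2, against 53.8% and 73.4% in circulating ex-Tcirc replicates 1 and 2. Among 2869 genes at 10 to 20 FPKM the shares were 1.57%, 42.1% and 68.8%, and among 538 genes at 50 to 100 FPKM they were 0%, 9.48% and 44.6%. The bins were set by the level in tissue, which favours detection there. At each of these levels zeros were more frequent in both circulating ex-Tcirc libraries than in circulating ex-TRM replicate 2.

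For Calca, Ramp1 and Calcrl, 250 bases before 1 annotated transcript start are shown because these genes encode the peptide and both chains of its receptor and were listed lower in circulation. They come from RefSeq (GRCm38.p6, the assembly also called mm10) and are written in the direction of transcription. The gene spans given further on reach beyond these starts for Calca and Calcrl, so the Calca window lies inside the annotated gene, the Calcrl window crosses its 5′ end, and only the Ramp1 window lies wholly before its gene. Capitals mark TGACG, the core of the cyclic AMP response element, on either strand.
Calca, chr7:114636358-114636607, minus strand: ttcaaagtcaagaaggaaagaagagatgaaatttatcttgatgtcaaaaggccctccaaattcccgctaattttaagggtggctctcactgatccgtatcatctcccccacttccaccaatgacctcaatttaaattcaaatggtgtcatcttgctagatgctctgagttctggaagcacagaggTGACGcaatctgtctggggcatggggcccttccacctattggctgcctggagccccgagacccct
Ramp1, chr1:91179572-91179821, plus strand: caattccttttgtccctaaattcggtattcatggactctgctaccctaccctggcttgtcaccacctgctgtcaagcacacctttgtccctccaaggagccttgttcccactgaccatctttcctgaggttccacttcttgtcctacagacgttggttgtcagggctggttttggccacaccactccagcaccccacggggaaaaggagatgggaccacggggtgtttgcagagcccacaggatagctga
Calcrl, chr2:84425267-84425516, minus strand: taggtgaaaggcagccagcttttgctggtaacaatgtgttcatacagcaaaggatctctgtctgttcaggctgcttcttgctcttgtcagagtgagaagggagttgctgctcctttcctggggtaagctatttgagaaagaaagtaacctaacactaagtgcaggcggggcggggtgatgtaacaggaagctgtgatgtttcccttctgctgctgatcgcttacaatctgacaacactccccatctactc

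Only the Calca window held the core among these 3, 65 bases before the start. Windows of 6 members were searched, at 13 annotated starts, and Pde3b, Pde7a and Crem were not. The other match was at 1 of 4 starts of Pde4b. The core occurred in 17.8% of 32851 windows of this length, the full element TGACGTCA in 1.55% and the AP-1 motif TGANTCA in 6.75%, and neither of these was found in any of the 13 windows. The core forms part of the full element. A match is a string of letters and says nothing on binding.

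Calca was high in tissue and low or unseen in circulation. It was at 110 and 41.5 FPKM in tissue ex-TRM cells and at 36.9 and 39.2 FPKM in tissue ex-Tcirc cells, against 12.2 FPKM in circulating ex-TRM replicate 2 and 0 in each circulating ex-Tcirc library. All 4 tissue libraries lay above all 3 circulating ones, and tissue ex-TRM replicate 1 stood far above the other tissue libraries. Within ex-TRM the log2 difference, tissue minus circulating on log2(FPKM + 1), was 2.38 ± 0.67 (SE from limma, 2 libraries against 1), and without tissue ex-TRM replicate 1 it was 1.68. Calca lies on chromosome 7 at 114625981 to 114636910 (GRCm38), the next member along that chromosome being Pde3b at 114415222 to 114537938. Pulmonary neuroendocrine cells also make CGRP. Of 10 markers of such cells, Resp18 and Dbh were listed at 0 in all 7 libraries. The summed level of the 10 was 12.6 to 28.2 FPKM in tissue, 16.2 FPKM in circulating ex-TRM replicate 2 and 0 in circulating ex-Tcirc. It was lowest among tissue libraries in tissue ex-Tcirc replicate 2, where Calca was at 39.2 FPKM, and 15.8 FPKM in tissue ex-TRM replicate 1, where Calca was highest. The part of such cells in the Calca values was not tested.

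Both receptor chain genes were seen in every tissue library and in no circulating one. Ramp1, whose product brings the receptor to the cell surface and sets its preference for CGRP, was at 16.2 and 11.1 FPKM in tissue ex-TRM cells and at 19.8 and 14.5 FPKM in tissue ex-Tcirc cells, and was listed at 0 in all 3 circulating libraries. Calcrl, the G protein-coupled chain, was at 9.04 and 6.96 FPKM in tissue ex-TRM cells and at 9.77 and 9.37 FPKM in tissue ex-Tcirc cells, again against 0 in all 3 circulating libraries. Of the circulating libraries, replicate 2 of ex-TRM had the fewest zeros among genes of these levels, as given above. Of genes with a tissue mean of 10 to 20 FPKM, the range of Ramp1, 1.43% were at 0 in all 3 circulating libraries, and of those at 5 to 10 FPKM, the range of Calcrl, 5.47% were. In bulk libraries fewer expressing cells and less RNA per cell cannot be told apart. The values differ from 0 by amounts that depend on the pseudocount, so no fold is given for Ramp1 or Calcrl. Log2 values given below for genes at 0 in the circulating ex-Tcirc pair depend on it as well. Ramp1 lies on chromosome 1 at 91179822 to 91225196 and Calcrl on chromosome 2 at 84330626 to 84425405.

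Ramp3, another chain that pairs with the product of Calcrl to form a receptor for adrenomedullin, did not share this pattern. It was at 37.3 and 27.7 FPKM in tissue ex-TRM cells and 23 and 20.6 FPKM in tissue ex-Tcirc cells, against 47 FPKM in circulating ex-TRM replicate 2 and 39.5 and 0 FPKM in circulating ex-Tcirc. Groups overlapped between tissue and circulation. Ramp2 was at 0 to 5.67 FPKM in tissue, against 4.73, 0 and 0 FPKM in circulation. Lung endothelial cells express Calcrl and the Ramp genes. Of 10 endothelial markers, the defining Cdh5 was at 0 to 13.3 FPKM in tissue, against 3.07, 0 and 0 FPKM in circulation. Their summed level was 10.7 to 44.1 FPKM in tissue and 25.1, 63.4 and 6.61 FPKM in circulating ex-TRM replicate 2 and circulating ex-Tcirc replicates 1 and 2. Among tissue libraries the sum was highest in tissue ex-Tcirc replicate 1, where Ramp1 and Calcrl were also highest, at 19.8 and 9.77 FPKM. It was lowest in tissue ex-Tcirc replicate 2, where they were at 14.5 and 9.37 FPKM. In circulating ex-Tcirc replicate 1, Pecam1, which leukocytes also express, made up 52.3 FPKM of the sum. The part of endothelial cells in the Ramp1 and Calcrl values was not tested.

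**Figure D2:**
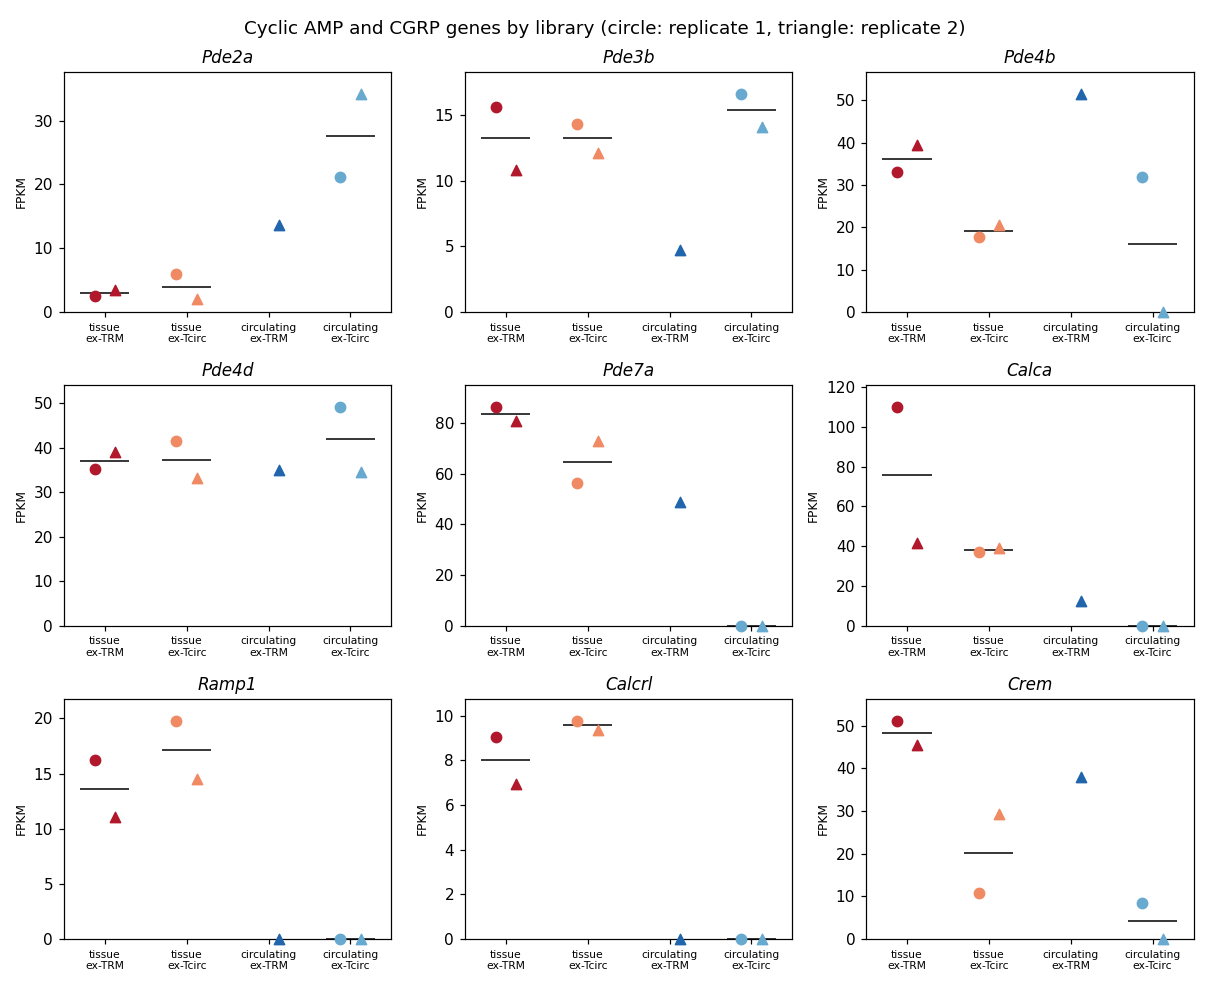
FPKM (vertical axes, linear from 0) of the 9 genes in the 4 groups, tissue on the left of each panel and circulating on the right, with a point for each library and a line at the mean of groups with 2 libraries. Pde2a is at 2.02 to 5.93 FPKM in tissue and 13.7 to 34.2 FPKM in circulation, Ramp1 and Calcrl are at 0 in all 3 circulating libraries, and Pde4d keeps to 33.1 to 49.1 FPKM in all 7.

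Pde2a, a phosphodiesterase that is stimulated by cyclic GMP and breaks down both cyclic nucleotides, ran the other way. It was at 2.47 and 3.48 FPKM in tissue ex-TRM cells and at 5.93 and 2.02 FPKM in tissue ex-Tcirc cells, against 13.7 FPKM in circulating ex-TRM replicate 2 and 21.1 and 34.2 FPKM in circulating ex-Tcirc. The groups did not overlap by location, and Pde2a was above 0 in all 7 libraries. The lowest circulating value stood in the circulating library with the most genes detected. In order of level, circulating ex-Tcirc came first, then circulating ex-TRM, then the tissue groups, whose libraries overlapped. The log2 difference, tissue minus circulating, was -1.90 ± 0.68 in ex-TRM (SE from limma, 2 libraries against 1), -2.61 ± 0.56 in ex-Tcirc (SE, 2 against 2) and -2.25 ± 0.44 on average (SE, 7 libraries). It stayed between -2.55 and -1.95 under 15 alternative settings. Endothelial and myeloid cells also express Pde2a. The summed level of 10 myeloid markers was 50.4 to 160 FPKM in tissue, 71.4 FPKM in circulating ex-TRM replicate 2 and 784 and 308 FPKM in circulating ex-Tcirc. Of those 784 and 308 FPKM, Lyz2 alone made up 646 and 255 FPKM, with 6 and 3 of the 10 markers above 0. Csf1r was at 10.9 and 45.2 FPKM in replicates 1 and 2 of that group, against 2.24 to 10.5 FPKM in tissue. Its higher value fell in replicate 2, where Pde2a was highest, while Lyz2 was higher in replicate 1. Cd14, Mpeg1, Fcer1g and Cd68 were at 54.6, 39.7, 20.3 and 12.4 FPKM in replicate 1. For replicate 2, Cd14 was at 7.2 FPKM and Mpeg1, Fcer1g and Cd68 at 0. Itgam, Adgre1, Tyrobp and Marco were at 0 in the whole pair. In circulating ex-TRM replicate 2 the myeloid sum and the endothelial one lay within the tissue range. The part of other cells in the Pde2a values was not tested. Pde2a lies on chromosome 7 at 101421691 to 101512829.

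The other phosphodiesterase genes followed no common course. Pde4d, which encodes an enzyme specific for cyclic AMP, was at 35.1 and 39 FPKM in tissue ex-TRM cells and 41.4 and 33.1 FPKM in tissue ex-Tcirc cells, against 35 FPKM in circulating ex-TRM replicate 2 and 49.1 and 34.6 FPKM in circulating ex-Tcirc. Its groups overlapped throughout, also in the library with the fewest genes above 0 of the 7, and the average log2 difference by location was -0.04 ± 0.28 (SE, limma, 7 libraries). Pde4b, its close relative, known to be recruited to the engaged T cell receptor, was at 33 and 39.4 FPKM in tissue ex-TRM cells and 17.8 and 20.6 FPKM in tissue ex-Tcirc cells, against 51.6 FPKM in circulating ex-TRM replicate 2 and 32 and 0 FPKM in circulating ex-Tcirc. All 3 ex-TRM libraries thus lay above all 4 ex-Tcirc libraries, the narrowest gap being between 33 and 32 FPKM. Pde4b lies on chromosome 4 at 102087332 to 102607275 and Pde4d on chromosome 13 at 108654177 to 109955969.

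Pde3b, whose enzyme is inhibited by cyclic GMP, was at 15.6 and 10.8 FPKM in tissue ex-TRM cells and at 14.3 and 12.1 FPKM in tissue ex-Tcirc cells, against 4.74 FPKM in circulating ex-TRM replicate 2 and 16.6 and 14.1 FPKM in circulating ex-Tcirc. The single circulating ex-TRM library was the lowest of the 7, and the other 6 overlapped. Its log2 difference, tissue minus circulating, was 1.28 ± 0.43 in ex-TRM (SE from limma, 2 libraries against 1) and -0.20 ± 0.36 in ex-Tcirc (SE, 2 against 2). Pde7a, a phosphodiesterase with high affinity for cyclic AMP, had the highest level in tissue of the phosphodiesterase genes here. It was at 86.3 and 81 FPKM in tissue ex-TRM cells and 56.5 and 72.8 FPKM in tissue ex-Tcirc cells, against 48.8 FPKM in circulating ex-TRM replicate 2 and 0 in each circulating ex-Tcirc library. Within ex-TRM its log2 difference was 0.76 ± 0.39 (SE from limma, 2 libraries against 1). Of 538 genes with a tissue mean of 50 to 100 FPKM, 8.55% were at 0 in that whole pair, as Pde7a was. Pde7a lies on chromosome 3 at 19223108 to 19311322.

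**Figure D3:**
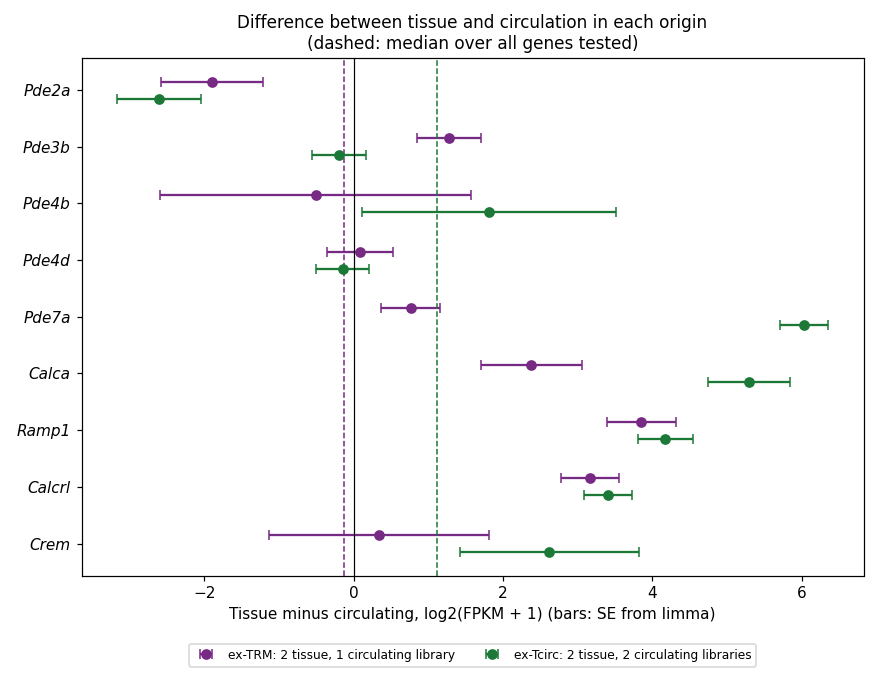
Difference between tissue and circulation on log2(FPKM + 1) (horizontal axis, points with SE from limma) for each gene in ex-TRM and in ex-Tcirc cells, with dashed lines at the median over all genes tested, -0.13 and 1.11. Points for Ramp1 and Calcrl in both origins, and for Pde7a and Calca in ex-Tcirc, are set against libraries listed at 0 and depend on the pseudocount.

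Crem encodes activators and the repressor ICER, which cyclic AMP induces from an internal promoter, and the values per gene do not separate these products. It was at 51.2 and 45.5 FPKM in tissue ex-TRM cells and at 10.8 and 29.4 FPKM in tissue ex-Tcirc cells, against 38 FPKM in circulating ex-TRM replicate 2 and 8.47 and 0 FPKM in circulating ex-Tcirc. As with Pde4b, all 3 ex-TRM libraries were above all 4 ex-Tcirc libraries, here 38 against 29.4 FPKM at the closest. Such a separation held for these 2 of the 9 members and for 7.95% of all genes tested. In tissue the log2 difference, ex-TRM minus ex-Tcirc, was 1.38 ± 1.20 for Crem and 0.88 ± 1.70 for Pde4b (SE from limma, 2 libraries against 2), the first close to its SE and the second below it. The spread within circulating ex-Tcirc, with its zero, enters this SE. Tissue ex-Tcirc replicate 1, the library with the lower Crem of its pair, also stood apart in other cell types. Its summed B cell markers were at 395 FPKM, against 64.9 FPKM in tissue ex-Tcirc replicate 2, and its summed alveolar epithelial markers at 87.6 against 4.92 FPKM. Circulating ex-Tcirc replicate 1, with Crem at 8.47 FPKM, had sums of 257 FPKM for B cells and 549 FPKM for alveolar epithelium. Of those 549 FPKM, Sftpc made up 421 FPKM. Both sums were at 0 in circulating ex-Tcirc replicate 2, where Crem was at 0. The part of these cell types in the Crem values was not tested.

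limma was fitted over all 28325 genes with at least 1 FPKM in at least 2 of the 7 libraries. For location averaged over origins, 5 of the 9 members passed an adjusted p of 0.05, Calca, Ramp1, Calcrl and Pde7a higher in tissue and Pde2a lower, beside 12.8% of all genes tested. All 4 tissue libraries lay above all 3 circulating ones for 4 members, against 12.1% of all genes, and below them for 1 member, against 2.33%. As the members were listed with this contrast known, nothing is read from these counts. Zeros in the circulating ex-Tcirc pair were shared by 3489 of the 3618 genes called for location and by 4 of the 5 members called, all but Pde2a. Where a pair is at 0 it adds no spread to the fit of that gene. Without tissue ex-TRM replicate 1 or replicate 2, limma called 0 of 26983 and 0 of 26434 genes for location, no member among them, with 5016 and 4747 at an unadjusted p under 0.05. The Pde2a location difference was then -2.16 and -2.34 on the log2 scale (limma adjusted p = 0.193 and 0.175).

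Within ex-Tcirc the same 5 members passed, beside 21.1% of all genes. There the Pde2a call was lost without either tissue ex-TRM library, without tissue ex-Tcirc replicate 2 and without circulating ex-Tcirc replicate 2, as well as without the filter, among genes above 0 in all 7 libraries, with the replicate block and with all 8 libraries. Its log2 difference stayed between -3.21 and -2.01 over 16 alternatives. Within ex-TRM limma called 0% of genes at an adjusted p of 0.05, with 2482 of 28325 at an unadjusted p under 0.05, 5 members among them. Between origins within tissue, ex-TRM minus ex-Tcirc, it also called 0%, with 1398 genes and no member at an unadjusted p under 0.05. In that comparison both ex-TRM libraries lay above both ex-Tcirc libraries for Pde4b, Pde7a, Calca and Crem, 4 of 9 members against 21.8% of all genes, and below them for Calcrl, 1 of 9 against 10.5%. Whether the location difference itself differed between origins was tested as an interaction, which called Pde7a, 1 of 9 members, beside 7.41% of all genes. Without tissue ex-TRM replicate 1 or 2 limma called 0 genes for this interaction, Pde7a included, with 4568 and 4773 at an unadjusted p under 0.05.

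The wider pathway was described with 92 other genes in 6 lists, of which 69 were tested. For location, 19 of the 69 passed, all higher in tissue, beside 12.8% of all genes, with a median log2 difference of 0.88 against 0.55 over all genes tested. The lists were also chosen with earlier results known, so nothing is read from this count or from those by list below. Adcy3, Adcy4, Adora2b, Vipr2, Prkar2b, Akap1 and Tac1 were at 0 in all 3 circulating libraries. They passed the filter through tissue libraries alone and could be called in 1 direction only. Among the 19, 18 had zeros in the whole circulating ex-Tcirc pair, and none of the 69 passed in limma without tissue ex-TRM replicate 1 or without replicate 2, where the unadjusted counts over all genes were 5016 and 4747. Within ex-TRM 0 of the 69 passed in limma, though 9 had an unadjusted p under 0.05. Their median log2 difference was 0.07 there, against -0.13 over all genes. Between origins in tissue 0 passed in limma, with 3 at an unadjusted p under 0.05.

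Among receptors that raise cyclic AMP, 7 of 11 tested passed for location, 6 of them at 0 in the whole circulating ex-Tcirc pair, beside 12.8% of all genes, and within ex-TRM 0 of 11 passed in limma, with 3 at an unadjusted p under 0.05. Gpr65, a proton-sensing receptor, was at 31.7 and 26.5 FPKM in tissue ex-TRM cells and 26.5 and 28.5 FPKM in tissue ex-Tcirc cells, against 10.6 FPKM in circulating ex-TRM replicate 2 and 0 in each circulating ex-Tcirc library (limma adjusted p = 0.0231). The adenosine receptor gene Adora2a was at 27.3 and 24.2 FPKM in tissue ex-TRM cells and 26.1 and 17.9 FPKM in tissue ex-Tcirc cells, against 37.1 FPKM in circulating ex-TRM replicate 2 and 0 in each circulating ex-Tcirc library, so its call (limma adjusted p = 0.024) rests on the zeros. The other 5 calls were Adora2b, Ptger2, Ptgir, Vipr2 and Gpr174. Within ex-TRM the log2 difference, tissue minus circulating, was 0.02 for Ptger2, 0.15 for Ptgir, -0.51 for Adora2a, 1.01 for Gpr174 and 1.37 for Gpr65. Adora2b, at 1.6 and 1.26 FPKM in tissue ex-TRM, and Vipr2, at 1.43 and 1.52 FPKM, were listed at 0 in all 3 circulating libraries. Their differences depend on the pseudocount and are not given. Adora2b was also at 0 in both tissue ex-Tcirc libraries. Ptger4, the most abundant of the list and a receptor for prostaglandin E2, was at 39.2 to 80.2 FPKM in tissue, against 44.8, 30.4 and 8.94 FPKM in circulation, and did not pass.

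Genes that make cyclic AMP were mostly detected on both sides. Adcy7, the most abundant adenylyl cyclase gene, was at 29.1 to 43.8 FPKM in tissue, against 36.5, 26 and 66.7 FPKM in circulation. Gnas, which encodes the stimulatory G protein alpha subunit, was at 66 to 97.5 FPKM in tissue, against 80, 186 and 21.4 FPKM in circulation. Gnai2, for an inhibitory alpha subunit, was at 108 to 122 FPKM in tissue, against 230, 231 and 0 FPKM in circulation. The calls in this list were Adcy3 and Adcy4, 2 of 12 tested, beside 12.8% of all genes. They were at 3.94 to 7.48 and 1.34 to 3.19 FPKM in tissue and 0 in all 3 circulating libraries. Among other phosphodiesterase genes, 2 of 11 tested passed, Pde1b and Pde4a, beside the same 12.8%. Both were at 0 in the circulating ex-Tcirc pair, with log2 differences of 0.01 and 0.84 within ex-TRM. None of that list exceeded a mean of 6.08 FPKM over the 7 libraries, the value of Pde12. All 5 phosphodiesterase members had higher means.

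Downstream of cyclic AMP, 4 of 12 tested genes of protein kinase A, Epac and anchoring proteins passed, beside 12.8% of all genes. These were Prkar2b, Akap1, Akap10 and Akap11, and all 4 were at 0 in the circulating ex-Tcirc pair. Akap13, an anchoring protein gene with the highest level in this list, ranged over 101 to 208 FPKM in tissue, against 204, 114 and 181 FPKM in circulation. The regulatory subunit gene Prkar1a was at 42.5 to 58.8 FPKM in tissue, against 57.1, 53 and 0 FPKM in circulation. Among 13 CREB factors, coactivators and their kinases 2 passed, Crtc2 and Sik2, beside 12.8% of all genes. Both were seen in circulating ex-TRM replicate 2, at 15.5 and 27.7 FPKM, and were at 0 in circulating ex-Tcirc. Creb1 itself was at 22.9 to 30.9 FPKM in tissue, against 25.6, 16.9 and 18.7 FPKM in circulation. Sik1, a kinase gene induced by CREB, was at 51.6 to 91.3 FPKM in tissue, against 83, 67.3 and 0 FPKM in circulation. Of 10 tested neuropeptide genes and receptors, Penk and Tac1 passed, beside 12.8% of all genes, and both were at 0 in the circulating ex-Tcirc pair. Penk, which encodes enkephalin precursors, was at 12.5 to 17.4 FPKM in tissue, 13.5 FPKM in circulating ex-TRM replicate 2 and 0 in circulating ex-Tcirc. Calcb, which encodes the second form of CGRP, was listed at 0 in all 7 libraries.

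**Figure D4:**
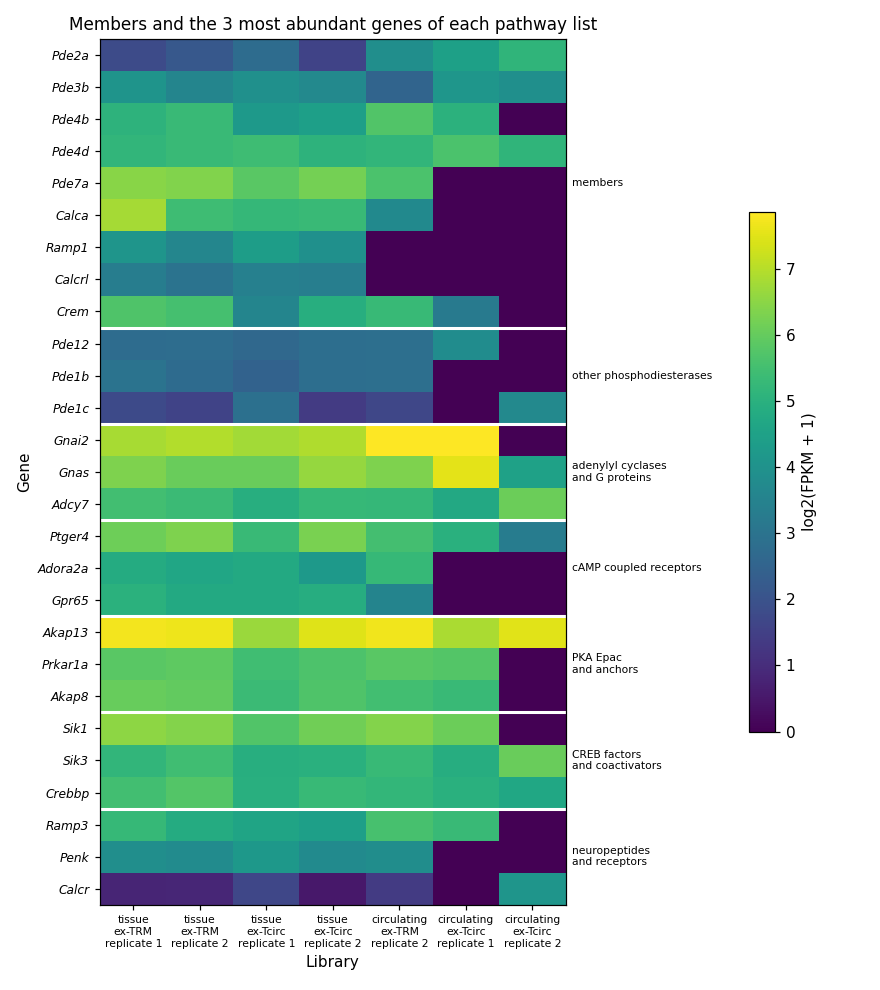
Level on log2(FPKM + 1) (colour) of the 9 genes and of the 3 genes with the highest mean in each pathway list (rows) in the 7 libraries (columns). Pde7a, Calca, Adora2a, Gpr65 and Penk share dark cells at 0 in each circulating ex-Tcirc library, while Pde2a alone among the 9 is darker in all tissue libraries than in all circulating ones.

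Genes with the most similar course were sought for each member by Pearson correlation over the 7 libraries, among 3523 or 3524 genes above 0 in all of them with a mean of at least 5 FPKM. For Pde2a they were Dgkz (r = 0.996, n = 7), which encodes a diacylglycerol kinase, and the predicted genes Gm3222 and Gm7993. Dgkz was at 28.9 to 39.4 FPKM in tissue, against 55.6, 62.9 and 78.9 FPKM in circulation. For Calca they were Rsbn1l, the receptor segment Traj21 and Il2ra (r = 0.990, 0.990 and 0.989, n = 7), and for Pde7a they were Nck2, Khdc4 and Brwd1 (r = 0.995, 0.989 and 0.988, n = 7). Ramp1 and Calcrl shared the same 3, Ecm1, Snord8 and Peak1, with r of 0.968 to 0.976 (n = 7). Both were at 0 in all 3 circulating libraries, which by itself makes their courses alike. Pde4b went most closely with Srp9, Man1b1 and Gm8775 and Crem with Eif4h, Ppp1r12a and Gm15616. Pde3b was nearest to Nedd4 (r = 0.973, n = 7) and Pde4d to the predicted pseudogene Hspe1-ps5 (r = 0.978, n = 7). These libraries also differ in how many genes were listed above 0, and the best of some 3500 candidates is high by selection.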

How the data were processed

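RNA-seq values of 8 mouse libraries were used as deposited. Per the file headers, the authors gave FPKM per gene name. Per the submitters' processing notes the tools were StringTie 3.0.1, HISAT2 2.2.1, Trim Galore 0.6.7 and SAMtools 1.15, beside HOMER 4.11 and MACS2 2.2.7.1, on mm10, with the role of each left unstated. The annotation, strand setting and filters were not found in the labels. The labels' protocols describe strand-specific libraries from 3000 to 50000 sorted cells. The 14 ATAC-seq samples were not analysed here.

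Values of a gene name that occurred more than once were summed. limma 3.58.1 in R 4.3.3 was fitted with a mean-variance trend to group means of log2(FPKM + 1) over 7 libraries and the genes at 1 FPKM or more in at least 2 of them, with Benjamini-Hochberg adjustment over all genes tested and a threshold of 0.05. Log2 differences on this scale understate the change of low genes. The fits were tested on simulated data, with normal noise at the spread of the tissue pairs and without zeros. That test does not show how the fits behave for genes with zeros in circulation. Members and lists were chosen with earlier results of these data known. Named genes were all members, the 3 list genes with the highest mean over the 7 libraries, list genes that passed, and the 3 genes most like each member, which were not refitted under the alternatives. Alternatives were another pseudocount, other filters, scalings, a replicate block and leaving out each library. Results for some genes are not reported here.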

Additional observations from a re-analysis of the deposited data

Results flagged for a closer look

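Calca among the 4 tissue libraries had 1 value, 110 FPKM in tissue ex-TRM replicate 1, whose gap to the next took 0.937 of their whole range, above Dixon's critical value for 4 samples. The same held for Pde1c, at 6.44 FPKM in tissue ex-Tcirc replicate 1 (0.838), and for Adcy3, at 7.48 FPKM in tissue ex-TRM replicate 2 (0.847). In all, 43 genes, the members and the named list genes, were tested in this way and 3 exceeded it, while chance gives about 1 in 20.

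The location difference itself differed between ex-TRM and ex-Tcirc by limma's interaction test for Pde7a, with a log2 value of -5.26 ± 0.51 (SE; limma adjusted p = 0.0427). It also did for 8 other pathway genes, Adora2a (-5.01), Sik2 (-4.85), Ptgir (-4.08), Penk (-4.00), Crtc2 (-3.77), Gpr65 (-3.46), Ptger2 (-3.36) and Akap11 (-3.13). All 9 were above 0 in circulating ex-TRM replicate 2. In circulating ex-Tcirc, Ptger2 was at 0.538 and 0 FPKM and the other 8 were at 0 in each library, so the values depend on the pseudocount. The median over all genes was -1.21. Under rescaling, median-of-ratios factors, the block, all 8 libraries or without either tissue ex-TRM library, limma called no gene for this interaction.

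Circulating ex-TRM replicate 1, left out of the comparisons, listed Pde2a at 18.1 FPKM, between the 13.7 FPKM of replicate 2 of its group and the 21.1 FPKM of circulating ex-Tcirc replicate 1. It listed none of the 10 T cell markers above 0 and 917 gene names in all.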

How the results depend on the processing

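For location the 3618 calls became 6845 with a pseudocount of 0.1, 2259 and 195 at a mean of at least 5 and 20 FPKM, 1886 after rescaling to a common sum, and 0 with genes above 0 in all 7 libraries, with all 8 libraries or with the replicate block. In ex-Tcirc the 5984 became 9711, 2640 and 242 under the first 3 of these, 0 with genes above 0 in all 7 and with all 8 libraries, and 2786 with the block. In ex-TRM the count of 0 became 990 with a pseudocount of 0.1 and 854 without a filter, and for origin in tissue 814 and 584. The 2099 interaction calls became 6770 and 3165 under those, 4 at a mean of at least 20 FPKM, and 0 with genes above 0 in all 7 libraries, after rescaling, with median-of-ratios factors, with all 8 libraries and with the block. Leaving out 1 library at a time gave 0 to 10141 calls for location, 3448 to 10836 in ex-Tcirc, 0 to 3072 in ex-TRM, 0 to 5716 for origin in tissue and 0 to 10543 for the interaction. Circulating ex-TRM has 1 library, so without it only ex-Tcirc and tissue comparisons could be made. The cause of these changes was not tested.

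Deviations of same-numbered libraries correlated at -0.11, 0.02 and -0.08. No pairing by number was seen, which does not show that there is none. With the block the Pde2a location difference was -2.27 and the Pde7a location difference 3.42 (limma adjusted p = 0.144 and 0.122). No called difference of 43 genes, the members and the named list genes, reversed. For location, 4 of the 5 called members and 18 of the 19 called list genes had only zeros in the circulating ex-Tcirc pair. Against such zeros the ex-Tcirc difference cannot turn negative, so the lack of reversals says little. Of the 3279 values of the 43 genes under alternatives, 3020 stayed within 1 SE. The Pde2a location difference missed the threshold without a filter and after rescaling (limma adjusted p = 0.0514 and 0.0676), among genes above 0 in all 7 libraries (0.277) and with all 8 libraries (0.168). Rescaling moved the median of all genes for location by -0.15. Pde4b turned to -0.61 for location without circulating ex-Tcirc replicate 2, the library that lists it at 0. Over the 4 tissue libraries alone, chosen after seeing the data as was leaving out both circulating ex-Tcirc libraries, limma called 0 genes for origin, and leaving out that pair gave 0 within ex-TRM as well.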
